A study of Danio rerio with 4 samples.

Results

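The genes described are 8 transcription factors of the neurogenic programme, taken by name from a list drawn up with earlier results of these data known, by a rule that does not use their levels: the proneural gene neurog1, the neuronal differentiation genes neurod1, neurod2, neurod4 and neurod6b, the zinc finger genes insm1a and insm1b, and hes6. All 8 were found by symbol among the 29029 genes in the files. RNA came from olfactory sensory neurons (OSNs) of zebrafish embryos of the Tubingen/TLF strain at 48 hpf, dissociated from dissected olfactory epithelia and sorted by FACS into cells with RFP only or Venus only. The OMP class carried the OMP:RFP transgene, in which the olfactory marker protein promoter drives RFP in ciliated OSNs, and the TRPC2 class carried TRPC2:Venus, in which the trpc2 promoter drives Venus in microvillous OSNs. Each class had 2 libraries, called the first and the second by their replicate number. OMP RNA went through 1 round of amplification and TRPC2 RNA through 2, and fewer TRPC2 cells had been sorted, so the effects of class, amplification and cell number cannot be told apart.

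In the vertebrate olfactory epithelium, neurons arise from dividing progenitors through a cascade of basic helix-loop-helix (bHLH) factors. Proneural factors such as Neurog1 commit a progenitor to a neuronal fate and switch on Delta ligands, which restrain neighbouring cells through Notch and the Hes and Her repressors. Factors of the NeuroD group follow as cells leave the cycle and differentiate, and each works as a dimer with a ubiquitous E protein, a partnership that Id proteins block. In mouse, Insm1 is needed for olfactory progenitors to move from self-renewing to terminal neurogenic divisions.

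Reads counted over genes were 68098416 and 84599818 in OMP and 49483362 and 60189797 in TRPC2, and 3 reads in a library corresponded to 0.027 to 0.036 RPM, the deposited reads per 1000000 of a library total. ompb, an olfactory marker protein gene, stood at 185 and 218 RPM in the OMP pair and 0.24 and 6.95 RPM in the TRPC2 pair. trpc2b, of the channel that names the other class, stood at 2.80 and 3.82 RPM in OMP, against 13.5 and 24.2 RPM in TRPC2. In the second TRPC2 library the other channel gene, trpc2a, was at 0.21 RPM, below both OMP libraries. Of these channel genes only trpc2b was thus higher in both TRPC2 libraries, while the label itself comes from the sorted transgene. Red blood cell genes held 1.72% and 14.3% of the gene reads in OMP and at most 0.000836% in TRPC2. The pigment enzyme gene gch2 was at 1279 and 4521 RPM in TRPC2 against 16.8 and 28.2 RPM in OMP, but the 12 pigment cell genes were divided. Both TRPC2 libraries were higher in RPM for 5 and both OMP libraries for 4, beside 7.42% and 60.1% of all tested genes, and 3 overlapped. dct and tyrp1b had no read in TRPC2. Because the libraries are bulk pools, fewer cells that express a gene and less RNA per cell cannot be told apart.

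All 8 factors were read in all 4 libraries, where 52.1% of all genes were. The mean was above 1 RPM for 7 of them in OMP, where 56.1% of all genes reached that level, and for 8 in TRPC2, where 42.8% of all genes did. A total of 6 genes, all but neurog1 and neurod2, were above 1 RPM in every library, where 31.4% of all genes were. Transcript lengths were not used here, so levels are compared between libraries for each gene and not between genes.

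**Figure D1:**
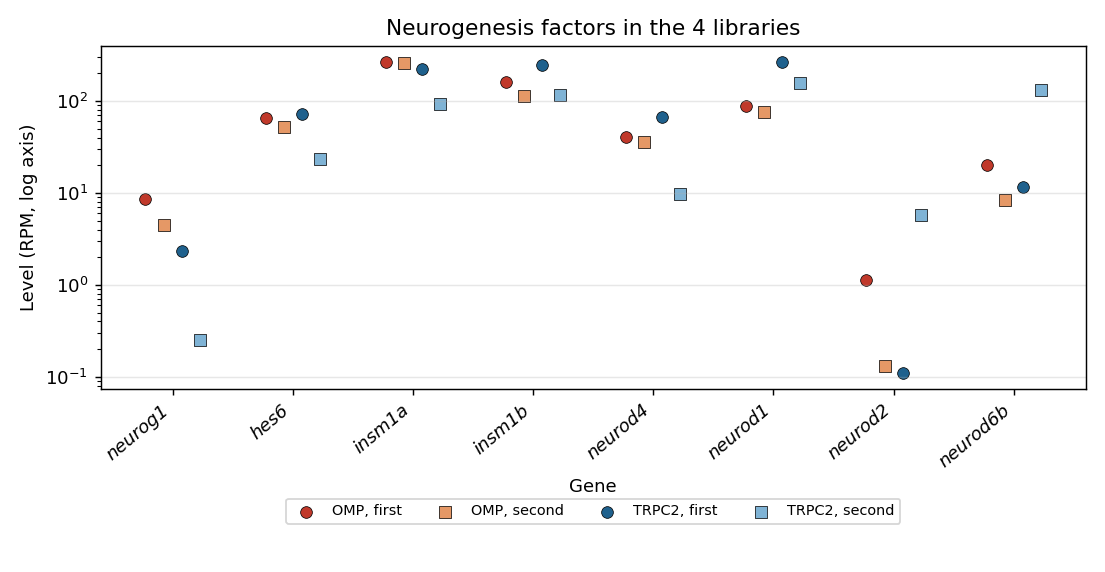
Level of each of the 8 neurogenesis factors in RPM (log axis), one point per library, with OMP libraries in red and orange and TRPC2 libraries in dark and light blue. The neurod1 points of TRPC2 (265 and 157 RPM) sit above those of OMP (88.1 and 76.8 RPM), the neurog1 points sit in the opposite order, and neurod6b and neurod2 stand high only in the second TRPC2 library.

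The proneural gene neurog1, which in zebrafish specifies early olfactory and cranial sensory neurons, was at 8.52 and 4.52 RPM in the OMP pair and 2.33 and 0.25 RPM in the TRPC2 pair. Both OMP libraries lay above both TRPC2 libraries. The lowest value rested on 21 reads, for which the counting error alone gives 0.15 to 0.38 RPM (95% exact Poisson interval). By mean RPM the gene was 5.05 times higher in OMP, with means of 6.52 ± 2.83 RPM (SD, n = 2) and 1.29 ± 1.47 RPM (SD, n = 2). The fitted log2 fold change of OMP over TRPC2 was 1.58 (standard error 1.42, adjusted p = 0.536 by the quasi-likelihood F test of edgeR), with a 95% interval from -2.15 to 5.31. Without the first TRPC2 library it was 3.74, and without the second TRPC2 library 0.74.

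hes6, a Hes-related gene that in mouse and frog promotes neuronal differentiation and, unlike the classical Hes repressors, opposes Hes1, was at 64.7 and 52.4 RPM in the OMP pair and 71.5 and 23.5 RPM in the TRPC2 pair. The TRPC2 libraries thus fell on either side of the OMP pair. The log2 fold change was -0.46 (standard error 0.58, adjusted p = 0.668 from edgeR), with a 95% interval from -1.99 to 1.06. Its direction rested on the TRPC2 library kept, at 0.35 without the first and -1.04 without the second, and it was 0.498 and 0.504 with limma.

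The paralogues insm1a and insm1b encode zinc finger repressors that are expressed briefly in newborn neurons and endocrine cells. insm1a was at 269 and 259 RPM in OMP, against 222 and 93.6 RPM in TRPC2. The OMP libraries agreed closely, at 264 ± 7.55 RPM (SD, n = 2), and lay above both TRPC2 libraries in RPM, but over gene totals the classes overlapped. insm1b was at 160 and 114 RPM in the OMP pair and 244 and 116 RPM in the TRPC2 pair, where the second TRPC2 value lay between the OMP values. The log2 fold change was -0.027 (standard error 0.48) for insm1a and -1.17 (standard error 0.47) for insm1b, with adjusted p = 0.979 and 0.179 from edgeR. As a ratio of OMP to TRPC2, the 95% interval of insm1a ran from 0.41 to 2.34 and that of insm1b from 0.19 to 1.04. Without the second TRPC2 library insm1b was at -1.58, and without the first at -0.72. insm1a turned to 0.53 without the first TRPC2 library and to 0.87 with limma.

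Among the NeuroD genes, neurod1, a differentiation factor of sensory neurons, retina and endocrine cells, was at 88.1 and 76.8 RPM in OMP, against 265 and 157 RPM in TRPC2. The lower TRPC2 library was 1.78 times the higher OMP library, and by means the gene was 2.56 times higher in TRPC2. The log2 fold change was -2.13 (standard error 0.39), with a 95% interval from -3.14 to -1.12, and neurod1 was the only one of the 8 with an interval clear of 0. The smallest adjusted p of any gene tested was 0.0721 from edgeR, a tie that ran from genes such as xdh (unadjusted p = 0.000327) to mitfa (unadjusted p = 0.0114). neurod1, with an unadjusted p of 0.00323, had this tied adjusted p, which does not set it apart, and it did not pass 0.05. It passed with DESeq2 (adjusted p = 0.000387), and without the first TRPC2 library (adjusted p = 0.00406 from edgeR) or the second (0.00251), where a single TRPC2 library takes its spread from OMP alone. It did not pass without the first OMP library (adjusted p = 0.676 from edgeR) or the second (0.666).

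neurod4, which in fish and frog acts in early neuronal and retinal differentiation, gave nearly the same mean in both classes, 38.1 ± 3.78 RPM (SD, n = 2) for OMP and 38.1 ± 39.9 RPM (SD, n = 2) for TRPC2. The OMP libraries were at 40.8 and 35.4 RPM and the TRPC2 libraries at 66.3 and 9.86 RPM, one above and one below the OMP pair. Its direction depended on which TRPC2 library was kept. The log2 fold change, -0.75 with adjusted p = 0.645 from edgeR, was 0.99 without the first TRPC2 library and -1.54 without the second.

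neurod6b and neurod2 belong to the later NeuroD genes, known in mammals for differentiating forebrain neurons. neurod6b was at 19.9 and 8.34 RPM in the OMP pair and 11.6 and 131 RPM in the TRPC2 pair. Only the second TRPC2 library stood out, at 11.3 times the first, and the first lay between the OMP libraries. neurod2 was at 1.12 and 0.13 RPM in OMP, against 0.11 and 5.76 RPM in TRPC2. Its lowest values rested on 14 reads in the second OMP library and 10 in the first TRPC2 library, and its 486 reads in the second TRPC2 library set it apart in the same way as neurod6b. The log2 fold change was -3.17 for neurod6b (standard error 1.27, adjusted p = 0.182 from edgeR) and -3.08 for neurod2 (standard error 2.27, adjusted p = 0.448 from edgeR). Without the second TRPC2 library they were -0.46 for neurod6b and 1.70 for neurod2, so the direction of neurod2 rested on that library. Without the first TRPC2 library they were -4.18 for neurod6b and -4.18 for neurod2.

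**Figure D2:**
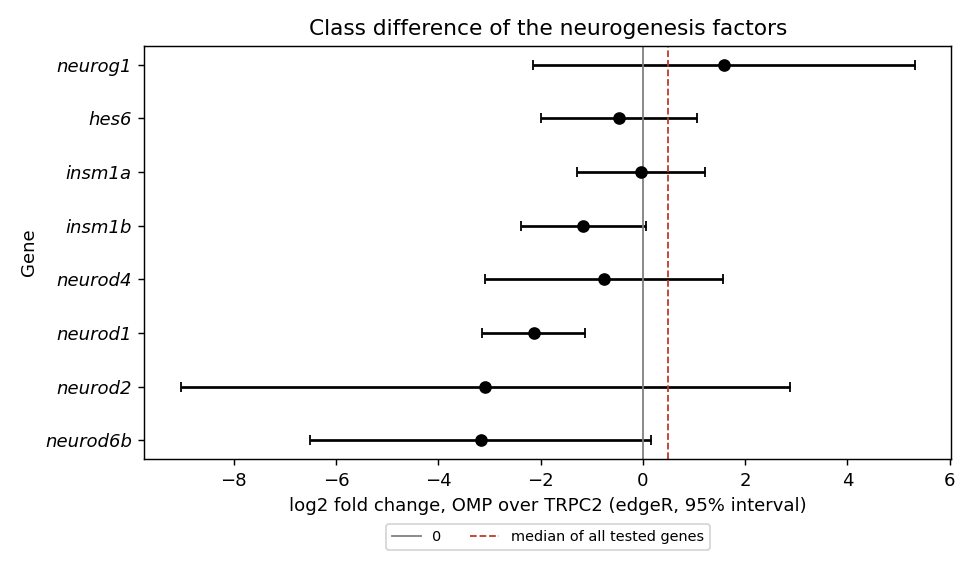
edgeR log2 fold change of OMP over TRPC2 for each of the 8 genes (points) with its 95% interval (bars). The grey line marks 0 and the dashed line the median over all tested genes, 0.49. Only the interval of neurod1 (-3.14 to -1.12) lies clear of 0.

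Read as a set, the factors gave 0 calls in either direction at an adjusted p under 0.05 from edgeR, as did all 21026 genes tested (0% called in each direction). At an unadjusted p under 0.05, 0 of the 8 were higher in OMP, against 23.3% of all tested genes, and 1 was higher in TRPC2, against 7.18%. DESeq2 called 2 of them higher in TRPC2, neurod1 and neurod6b, and 0 higher in OMP, beside 6.34% and 14.3% of the 19395 genes to which it gave an adjusted p. In RPM, OMP exceeded TRPC2 in every pairing of libraries for 2 factors (neurog1 and insm1a), where 60.1% of tested genes had that order, and the reverse held for 1 (neurod1), against 7.42%. Over gene totals the counts were 1 and 1, against 55.7% and 8.16%. The smallest p that an exact two-sided permutation test of 2 libraries against 2 can give is 0.333.

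The median log2 fold change was -0.96 over the 8 factors and 0.49 over all tested genes, and 7 of the 8 lay below 0, where 40.8% of all tested genes did. The count below 0 was 4 with limma, where the median was 0.090 or 0.093 by pseudocount, and 5 with library totals alone, beside 18.9%, 17.8% and 26.1% of all tested genes in those fits. The all-gene median moved with level, and it was 0.011 over the 15288 tested genes whose mean over the 4 libraries was above 1 RPM, with 49.7% below 0. Without the first TRPC2 library the median of the factors was -0.18, beside 1.24 over all tested genes. Summed over the 8 genes, the level was 652 and 549.5 RPM in OMP and 883 and 537 RPM in TRPC2, so that the OMP libraries lay between the TRPC2 libraries. Per 1000000 gene reads it was 1035 and 724 in OMP and 1578 and 752 in TRPC2, where the second OMP library lay below both TRPC2 libraries. The classes overlapped on both scales.

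No scaling between libraries can alter the make-up of that sum. In it the shares of neurod1, insm1a, neurog1 and hes6 differed in order between the classes, and those of insm1b, neurod2, neurod4 and neurod6b overlapped. No background for such orders was computed over other genes. neurod1 took 13.5% and 13.97% of the reads of the 8 genes in OMP and 30.02% and 29.3% in TRPC2. Counting error alone gave 95% Wilson intervals of 13.3% to 13.8% and 13.7% to 14.2% in OMP, and of 29.7% to 30.3% and 28.8% to 29.7% in TRPC2. insm1a took 41.3% and 47.04% in OMP and 25.1% and 17.4% in TRPC2, while insm1b differed less, at 24.5% and 20.7% in OMP and 27.6% and 21.5% in TRPC2. neurog1 took 1.31% and 0.82% in OMP and 0.26% and 0.046% in TRPC2, and hes6 9.91% and 9.53% in OMP and 8.10% and 4.37% in TRPC2. neurod4 took 6.25% and 6.45% in OMP and 7.51% and 1.84% in TRPC2, and neurod2 0.17% and 0.023% in OMP and 0.013% and 1.07% in TRPC2. In the second TRPC2 library neurod6b alone took 24.4%, against 1.31% to 3.05% in the other 3, and such a gain lowers the share of every other gene there.

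**Figure D3:**
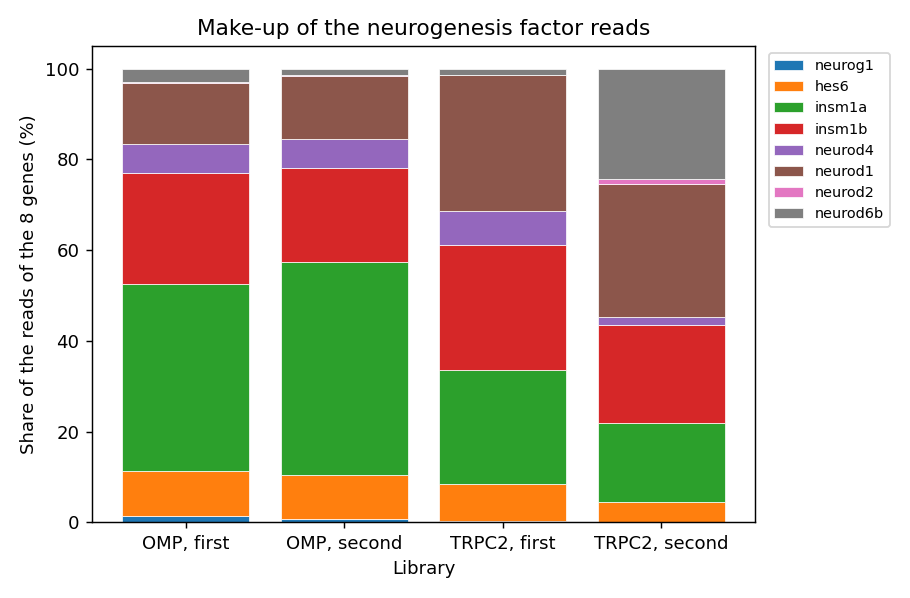
Share of the reads of the 8 genes taken by each gene (%), one stacked bar per library. The neurod1 segment is 13.5% and 13.97% in OMP and 30.02% and 29.3% in TRPC2, and the neurod6b segment is 24.4% in the second TRPC2 library only.

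Ratios within a library were computed for 7 pairs of genes, chosen after their levels were seen. The Insm1 paralogues took opposite orders in the classes. insm1a had 1.68 and 2.28 reads for each read of insm1b in OMP, and 0.91 and 0.81 in TRPC2. Against neurod1, neurod4 stood at 0.46 in both OMP libraries and at 0.25 and 0.063 in TRPC2. The ratio of neurog1 to neurod1 was 0.097 and 0.059 in OMP and 0.0088 and 0.0016 in TRPC2. In all, 6 of the 7 ratios were higher in both OMP libraries and 1 overlapped, but 5 of those 6 share neurod1 as the denominator and are not separate observations. neurod1 was the only factor higher in both TRPC2 libraries, so ratios over it were tilted towards OMP by that choice. The share of such orders over all pairs of genes was not computed, so the count and the p-values of these pairs are descriptive only. Each of the 6 had an exact two-sided permutation p = 0.333, the smallest possible, and 0.389 after Benjamini-Hochberg adjustment over the 7.

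**Figure D4:**
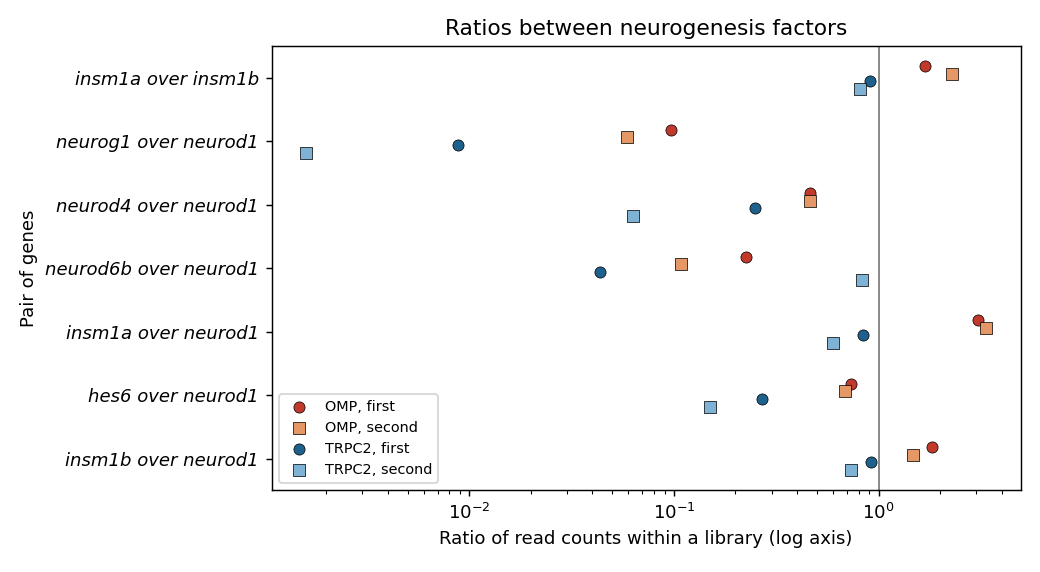
Ratio of read counts between 2 neurogenesis factors within each library (log axis), one point per library, with a grey line at 1. The insm1a to insm1b ratio is 1.68 and 2.28 in OMP and 0.91 and 0.81 in TRPC2, on either side of the line.

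The TRPC2 libraries differed from each other more than the OMP libraries did for all 8 factors, where 80% of the genes read in all 4 libraries showed the same. As shares of gene reads, the factors had a median difference of 1.59-fold between the OMP libraries and 6.23-fold between the TRPC2 libraries, against 1.33-fold and 2.55-fold over genes read in all 4 libraries. The largest difference was that of neurod2, at 39.96-fold between the TRPC2 libraries, followed by neurog1 at 11.9-fold.

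**Figure D5:**
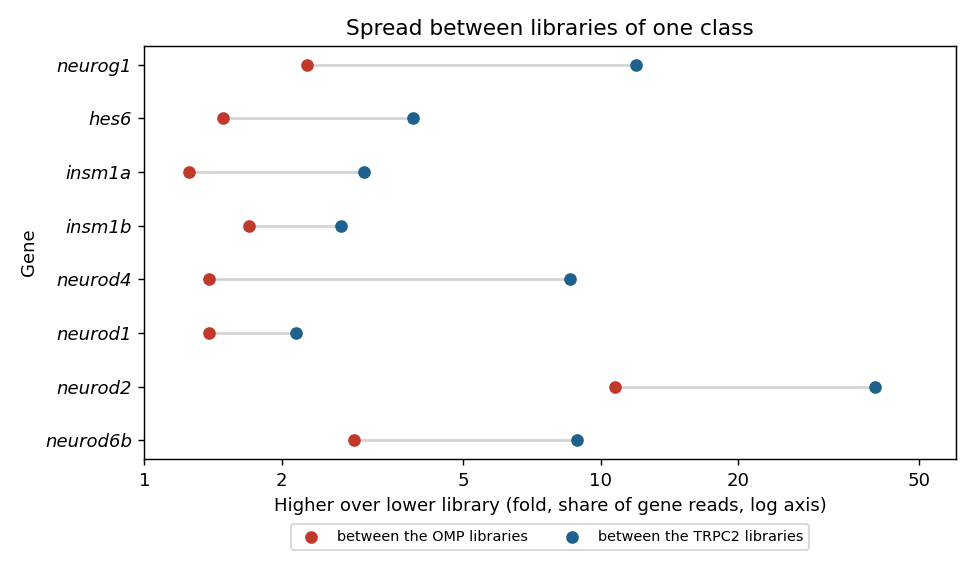
Higher over lower library of the same class for each of the 8 genes, as shares of gene reads (log axis), in red for OMP and blue for TRPC2. The TRPC2 point lies to the right for every gene, and that of neurod2 reaches 39.96-fold.

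As shares of gene reads, 6 factors were lower in the second TRPC2 library than in the first, where 51.4% of tested genes were, and 57.4% of those with a mean above 1 RPM. The 2 that were higher, neurod2 and neurod6b, are the later NeuroD genes. Between the OMP libraries all 8 factors were lower in the second, as were 70.2% of tested genes. Genes that mark dividing cells were lower in the second TRPC2 library for 15 of 15 members of a proliferation list, whose summed level was 1257 RPM in the first and 244 RPM in the second, against 1408 and 1250 RPM in OMP. The proliferation marker mki67 was at 228 and 29.5 RPM in TRPC2 and at 210 and 151 RPM in OMP, and pcna, the replication clamp, was at 250 and 87.1 RPM in TRPC2 and at 359 and 287 RPM in OMP. The Delta genes, named after their values were seen, were in the same order. dla was at 121 and 3.91 RPM in TRPC2 and at 62.4 and 54.9 RPM in OMP, dlb was at 240 and 12.9 RPM in TRPC2 and at 67.5 and 52.5 RPM in OMP, and dld, at 24.1 RPM in the first TRPC2 library, had no read in the second. Genes of immature neurons, a list that includes these Delta genes, were divided. In the second TRPC2 library 12 of 21 were lower, beside 57.4% of tested genes with a mean above 1 RPM, and 9 were higher. Among those higher, tuba1a, a tubulin of growing axons, was at 856 RPM in the first TRPC2 library and 4490 RPM in the second, against 748 and 785 RPM in OMP. These are differences between single libraries, for which no test was made, and the part of cell number in them was not tested.

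For the partners and antagonists of these factors, edgeR called 0 genes in any list, in either direction. It called 0 of all 21026 genes tested, so no list could hold a call. Of the E proteins, which pair with the proneural factors, tcf3b was at 58.4 and 55.0 RPM in the OMP pair and 66.4 and 104 RPM in the TRPC2 pair. tcf12 was at 50.1 and 36.2 RPM in OMP, against 87.6 and 39.4 RPM in TRPC2, and tcf3a was at 6.18 and 4.65 RPM in the OMP pair and 0.24 and 0.02 RPM in the TRPC2 pair. All 5 Id genes were read in all 4 libraries, with summed levels of 498 and 523 RPM in OMP and 536 and 592 RPM in TRPC2. id1 was at 241 and 306 RPM in OMP, against 308 and 62.2 RPM in TRPC2, and id3 was at 55.3 and 49.5 RPM in the OMP pair and 60.7 and 250 RPM in the TRPC2 pair. At an unadjusted p under 0.05, 3 of the 5 Id genes were higher in TRPC2 and 0 in OMP, beside 7.18% and 23.3% of all tested genes, and 1 of those 3, id2a, overlapped between the classes in RPM.

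The Hes and Hey repressors, many of them targets of Notch that hold progenitors back from differentiation, were ordered otherwise than hes6. OMP exceeded TRPC2 in every pairing of libraries for 15 of 17 in RPM and for 14 of 17 over gene totals, and the reverse held for 0, beside 60.1% and 55.7% of all tested genes. Their summed level was 482 and 399 RPM in OMP and 96.9 and 78.7 RPM in TRPC2. her6 was at 117 and 114 RPM in OMP, against 6.41 and 32.1 RPM in TRPC2, and hey1 at 39.0 and 43.3 RPM in OMP and 5.68 and 1.64 RPM in TRPC2. The list had a median log2 fold change of 1.81, beside 0.49 over all tested genes, and 3 of its 17 genes had an unadjusted p under 0.05, with OMP on top in each, a smaller share than the 23.3% of all tested genes. her9 was at 44.3 and 40.5 RPM in the OMP pair and 14.5 and 19.9 RPM in the TRPC2 pair. her4.2, at 65.0 and 39.3 RPM in OMP and 8.49 and 0.89 RPM in TRPC2, belongs to a set of closely similar copies among which reads may be shared. The her4 genes, all in the OMP order in RPM, are therefore not separate observations in the 15 of 17.

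Of 16 other bHLH genes in the files, a list that includes the mesodermal gene msgn1, 15 were tested. Of these, 5 reached an unadjusted p under 0.05 on the OMP side and 1 on the TRPC2 side, beside 23.3% and 7.18% of all tested genes. That 1 was nhlh2, a bHLH gene of differentiating neurons, at 98.3 and 79.9 RPM in OMP, against 310 and 149 RPM in TRPC2. Its log2 fold change was -2.14 (standard error 0.46), with the tied smallest adjusted p = 0.0721 from edgeR. olig2, a bHLH gene of motor neuron and oligodendrocyte precursors, was at 58.2 and 52.6 RPM in the OMP pair and 1.60 and 2.18 RPM in the TRPC2 pair, and atoh7, a proneural gene of the retina, was at 14.9 and 10.3 RPM in OMP, against 1.37 and 0 RPM in TRPC2. Among 14 factors that act during neuron differentiation, 0 had an unadjusted p under 0.05 on the OMP side and 4 on the TRPC2 side, the same 23.3% and 7.18% being the background. Of those 4, runx1t1 overlapped between the classes in RPM, and runx1t1 and myt1a overlapped over gene totals. ebf3a, of the Ebf (Olf1) family that activates olfactory neuron genes, was at 397 and 287 RPM in the OMP pair and 723 and 1006 RPM in the TRPC2 pair. The zinc finger gene myt1a was at 114 and 88.3 RPM in OMP, against 157 and 124 RPM in TRPC2.

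Genes expressed before and after these factors gave unlike orders. Of 15 genes of neural progenitors, 3 reached an unadjusted p under 0.05 on the OMP side and 3 on the TRPC2 side, beside 23.3% and 7.18% of all tested genes. fabp7a, a lipid-binding protein of radial glia, was at 852 and 866 RPM in the OMP pair and 56.4 and 36.7 RPM in the TRPC2 pair, and sox3 at 144 and 121 RPM in OMP and 71.2 and 13.0 RPM in TRPC2. pax6a and pax6b, which also act in later olfactory and retinal neurons, were higher in both TRPC2 libraries in RPM. pax6a, at 118 and 106 RPM in OMP and 276 and 122 RPM in TRPC2, overlapped between the classes over gene totals. pax6b was at 65.8 and 45.0 RPM in OMP and 289 and 127 RPM in TRPC2. Of 21 genes of immature neurons, 9 reached an unadjusted p under 0.05 with a fitted level higher in TRPC2, beside 7.18% of all tested genes. On the OMP side 0 did, beside 23.3%, and 3 of the 9 (stmn2b, elavl3 and sox11a) overlapped between the classes in RPM. Both TRPC2 libraries were higher in RPM for 6 of the 21 and both OMP libraries for 4, beside 7.42% and 60.1% of all tested genes, and 11 overlapped. Among the 9, stmn1b, a microtubule regulator of young neurons, was at 606 and 454 RPM in OMP, against 917 and 694 RPM in TRPC2. Of 13 genes of mature OSNs, which include both channel genes, 6 reached an unadjusted p under 0.05 with OMP on top, and 1, trpc2b, with TRPC2 on top, beside the same shares of 23.3% and 7.18%. The list also includes ompa and ompb, while the olfactory marker protein promoter drove the label of the sorted OMP cells. Class and maturity therefore cannot be told apart in this list. gnal, the olfactory G protein, was at 118 and 102 RPM in the OMP pair and 6.65 and 12.04 RPM in the TRPC2 pair.

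Several of the factors are also used outside the olfactory epithelium, and the markers of such tissues were compared in the same libraries. The 20 eye and photoreceptor genes, of which 19 were tested, summed to 169 and 213 RPM in OMP and 15.6 and 24.7 RPM in TRPC2. Both OMP libraries were higher for 17 of the 20, beside 60.1% of all tested genes. The photoreceptor and bipolar cell gene crx was at 37.2 and 22.3 RPM in OMP, against 0.02 and 3.38 RPM in TRPC2, and vsx1 at 45.6 and 26.8 RPM in OMP and 0.02 and 5.81 RPM in TRPC2. No read of rho, opn1sw2, cryaa, cryba2a, cryba4 or crygm2d1 was found in TRPC2. opn1sw1 overlapped between the classes, at 0 and 1.82 RPM in OMP and 4.64 and 0 RPM in TRPC2. Endocrine genes, of which ins, gcgb, sst1.1, sst2, pax4, prl, gh1 and pitx3 had no read in TRPC2, summed to 106 and 81.2 RPM in OMP and 3.48 and 9.56 RPM in TRPC2. Most of that sum was isl1, at 79.4 and 63.6 RPM in OMP, which neurons also express. Of the genes without a read in TRPC2, pax4 had only 4 and 1 reads in OMP and gh1 0 and 2. Both OMP libraries were higher for 10 of the 15, beside 60.1% of all tested genes, and 5 overlapped. Only 9 of the 15 were tested, so this count includes untested genes that the 60.1% leaves out. Among those 5, pdx1 was at 0.56 and 0.65 RPM in OMP and 0 and 2.86 RPM in TRPC2. The 15 genes of brain neurons and glia summed to 379 and 293 RPM in OMP and 238 and 98.5 RPM in TRPC2. Both OMP libraries were higher for 12 of the 15, of which 14 were tested, beside 60.1% of all tested genes, and 3 overlapped. The gene with the highest mean, foxg1a, was among those that overlapped, at 74.0 and 71.2 RPM in OMP and 126 and 38.7 RPM in TRPC2. The 13 hair cell genes summed to 22.2 and 43.6 RPM in OMP and 26.1 and 39.05 RPM in TRPC2. Both OMP libraries were higher for 8 of the 13, of which 12 were tested, beside 60.1% of all tested genes. Both TRPC2 libraries were higher for 1, and 4 overlapped. The gene with the highest mean, s100t, overlapped, at 6.72 and 25.3 RPM in OMP and 6.76 and 5.09 RPM in TRPC2. The unconventional myosin gene myo6b was at 4.14 and 3.76 RPM in OMP, against 13.1 and 12.1 RPM in TRPC2. pou4f3 had 22 and 32 reads in OMP and no read in TRPC2. otofa was at 4.37 and 4.96 RPM in OMP and 0 and 21.01 RPM in TRPC2, and atoh1a at 1.25 and 1.05 RPM in OMP and 6.13 and 0 RPM in TRPC2. Skin and muscle genes summed to 2405 and 4274 RPM in OMP and 214 and 155 RPM in TRPC2. The part of these other cells in the levels of the 8 factors was not tested.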

How the data were processed

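The authors aligned the reads with STAR to the GRCz10 assembly and obtained gene counts from VERSE. The tool versions, annotation and strand setting were not given in the sources used here. They deposited raw counts per gene symbol, and RPM that divide those counts by a library total exceeding the gene sum. The classes were tested on the raw counts of all genes with edgeR 4.0.16 in R 4.3.3, using glmQLFit, TMM, the default filterByExpr and class alone in the model, and p-values were adjusted by Benjamini-Hochberg over all tested genes. Log2 fold changes give OMP relative to TRPC2, and standard errors and 95% intervals were derived from the F statistic. limma 3.58.1 on log2(RPM + 0.5) or log2(RPM + 0.1) and DESeq2 1.42.0 were alternatives. Each was tested on simulated data, where DESeq2 made more false calls than edgeR once the spread between libraries was wide. At that spread edgeR also made fewer correct calls than DESeq2, so a gene that edgeR did not call may still differ. The simulation gave both classes the same spread, whereas here the TRPC2 libraries differed more than the OMP libraries. It therefore cannot decide between the tools for these data. All 8 factors passed the filter. The sources do not say that libraries of a class came from separate clutches, so the p-values reflect only the spread among these libraries, which could be technical. Intervals on reads cover counting error only. The 8 factors and the 16 lists of other genes were chosen with earlier results of these data known. From each list, genes are named from among the 4 with the highest mean RPM over the 4 libraries. Not all of these are given, so the named genes do not stand for their list. Other genes named, apart from those at 0, were chosen after their values were seen, among them trpc2a, trpc2b, dla, dlb, dld and msgn1. Part of the list of factors is not reported here.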

Additional observations from a re-analysis of the deposited data

How the results depend on the processing

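Adjusted p under 0.05 called 0 of the 8 factors in either direction with edgeR under DESeq2's size factors, library totals, no filter, at least 100 counts in 2 libraries, without red blood cell genes, and with limma. DESeq2 called 2 higher in TRPC2. Nothing in the labels used here links same-numbered libraries beyond their number. Their correlation of deviations over genes was 0.014. With 2 libraries a class both pairs give the same value, and it cannot show whether a batch was shared. The replicate block called 1 (neurod1) higher in TRPC2. Dropping 1 library at a time gave 0 to 2 factors higher in OMP and 0 to 4 in TRPC2, the high ends without a TRPC2 library. Over all genes the calls were 2782 in OMP and 1230 in TRPC2 with DESeq2, 4945 and 165 with limma at 0.5 RPM, 5350 and 175 at 0.1 RPM, 329 and 268 with the replicate block, and 60 to 8023 and 50 to 3773 over the fits that drop a library, against 0 and 0. The median log2 fold change of the factors, -0.96, was 0.090 and 0.093 with limma at 0.5 and 0.1 RPM, -0.41 with library totals, and -1.12 to -0.18 over the fits that drop a library. The all-gene median, 0.49, was 0.36 with DESeq2's size factors, 1.13 with library totals and 1.504 with limma at 0.1 RPM, and stayed above that of the factors in each of the 13 alternatives. neurod1, neurod6b and insm1b stayed below 0 and neurog1 above 0 in all 13. hes6, at -0.46, was 0.498 and 0.504 with limma, 0.095 with library totals, and -1.04 to 0.35 over the fits that drop a library. insm1a, at -0.027, was 0.869 and 0.871 with limma, 0.54 with library totals, 0.087 with the replicate block, and -0.50 to 0.53 over the fits that drop a library. neurod4, at -0.75, was 0.55 and 0.57 under limma and -1.54 to 0.99 over the fits that drop a library, and neurod2, at -3.08, was -5.33 to 1.70. The cause was not tested. With 2 libraries a class, the 95% interval of 5 factors ran from over 2-fold lower to over 2-fold higher. Low read counts bear on neurog1 and neurod2, with as few as 21 and 10 reads in a library.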

Other observations

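The following genes were named after their values were seen. neurod6a, the paralogue of neurod6b, was at 2.66 and 1.55 RPM in the OMP pair and 0 and 5.94 RPM in the TRPC2 pair, so that both paralogues were highest in the second TRPC2 library. The bHLH genes olig3 and olig4 were high in opposite TRPC2 libraries, olig3 at 8.02 and 0.19 RPM and olig4 at 0.01 and 9.77 RPM, against 1.34 and 0.70 RPM and 1.02 and 1.75 RPM in OMP. gng8, a G protein gamma subunit of immature olfactory neurons in mouse, was at 46.5 and 46.1 RPM in OMP, against 566 and 169 RPM in TRPC2. Both TRPC2 libraries thus lay above both OMP libraries, an order that 7.42% of all tested genes had in RPM. gap43, a growth cone gene, was at 185 and 83.6 RPM in the OMP pair and 103 and 426 RPM in the TRPC2 pair.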
